A study of Rattus norvegicus with 16 samples.

Results

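The genes described here are 36 members of the unfolded protein response and the heat shock response, listed by name and found in all 16 deposited gene tables, among 31038 genes in all. The list goes by role and its rule uses no measured value. They comprise 3 stress sensors, 3 transcription factors with the ATF4-induced pseudokinase Trib3, 2 enzymes that are ATF4 targets, 8 ER chaperones, 3 protein disulfide isomerases, 3 genes of ER-associated degradation, 7 cytosolic chaperones, 3 small heat shock proteins and co-chaperones, the 2 subunits of the mitochondrial chaperonin and the heat shock regulator Hsf1. Proteins that enter the endoplasmic reticulum (ER) are folded there by chaperones such as BiP (Hspa5) and by disulfide isomerases, and a surplus of unfolded protein activates the sensors IRE1 (Ern1), PERK (Eif2ak3) and ATF6, which act through spliced XBP1, ATF4 and cleaved ATF6. In the cytosol the corresponding task falls to the HSP70 and HSP90 families, whose stress-induced members are switched on by HSF1. Schwann cells make large amounts of membrane and secreted protein for the myelin sheath, and after a nerve crush they leave that state.

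The libraries were RNA-seq libraries of rat sciatic nerve, with 2 libraries in each of 8 groups. The Schwann cell groups were uncrushed, day 3, day 5 and day 7 after crush, and the whole nerve groups had the same 4 time points. Each Schwann cell sample pooled at least 10 nerves, which were digested and dissociated, depleted of cells binding CD45 and Thy1 and then selected on O4, whereas whole nerve RNA was taken from intact tissue with another RNA kit. All animals are labelled postnatal day 18, the age at crush, no sham operation was performed, and only the nerve distal to the crush (or its equivalent) was used. A difference between Schwann cells and whole nerve therefore cannot be told apart from dissociation, RNA kit and cell mixture in these 16 libraries (dissociated whole nerve, which the study lists as a control, was not analysed here), and a difference between time points cannot be told apart from age. Strain is not given in the sources used here.

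Library totals lay between 10555067 and 27562637 counts. The 7 Schwann cell markers were present in all libraries, with a summed level of 8618 and 9146 in uncrushed and 4091 to 6429 in crushed Schwann cells, and of 22045 and 26240 in uncrushed and 2260 to 4614 in crushed whole nerve (FPKM scaled between libraries by TMM factors, a unit per length). In the Schwann cell libraries the 6 macrophage markers summed to 2.42 to 12.6 and the 4 endothelial markers to 0.218 to 3.41, and for both lists the highest value belonged to day 3 replicate 2. The 5 fibroblast markers, which include collagens that Schwann cells may also express, summed to 1303 and 1328 in uncrushed Schwann cells and to 177 to 326 after crush. The 3 pericyte markers summed to 34.4 and 45.2 in uncrushed Schwann cells and to 6.69 to 16.2 after crush, and the 3 perineurial markers to 19.8 and 19.98 and to 11.9 to 17.9. Most of the uncrushed pericyte sum was Pdgfrb (32.5 and 29.2), and nearly all of the uncrushed perineurial sum was Slc2a1 (19.2 in each library). For the other pericyte and perineurial markers, Rgs5, Acta2, Cldn1 and Msln, uncrushed and crushed Schwann cell libraries overlapped. The part of these lists in the comparisons of crushed with uncrushed Schwann cells was not tested. In whole nerve the macrophage sum was 145 and 162 uncrushed and 310 to 521 after crush.

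Promoter sequences are shown for the members that carry the known elements of the ER and the cytosolic response, because the results turn on the contrast between these compartments. Promoter sequence from RefSeq (GRCr8; 250 bases before to 50 after the start) was at hand for 29 of the 36 members. The ER stress element, spelled CCAAT, then 9 bases of any kind, then CCACG, was searched on both strands and occurred in 6 of these 29 promoters and in 0.0657% of all 33469 promoters. The shorter CCACG, which is part of that element, occurred in 22 of the 29 and in 31.6% of all. The 6 stretches that hold the full element are shown with its fixed letters in capitals, as they read on the strand of the gene, so that an element on the opposite strand reads CGTGG first and ATTGG last.
Hspa5 (chr3:38452948-38453015, + strand): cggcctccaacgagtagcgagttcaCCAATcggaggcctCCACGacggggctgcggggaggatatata
Hsp90b1 (chr7:23012322-23012494, - strand): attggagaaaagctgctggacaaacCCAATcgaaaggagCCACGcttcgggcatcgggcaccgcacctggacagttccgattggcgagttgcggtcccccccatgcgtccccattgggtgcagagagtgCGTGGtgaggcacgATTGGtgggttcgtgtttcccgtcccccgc
Creld2 (chr7:121789214-121789282, + strand): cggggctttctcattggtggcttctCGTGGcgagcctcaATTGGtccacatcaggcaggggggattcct
Canx (chr10:35158044-35158107, - strand): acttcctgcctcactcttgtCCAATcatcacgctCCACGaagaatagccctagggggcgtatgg
Xbp1 (chr14:84604533-84604601, + strand): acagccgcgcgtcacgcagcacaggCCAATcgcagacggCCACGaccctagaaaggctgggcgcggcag
Calr (chr19:40213117-40213178, + strand): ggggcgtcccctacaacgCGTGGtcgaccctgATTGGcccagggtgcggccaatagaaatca
The Hsp90b1 promoter held 2 copies, on opposite strands, and each of the other promoters held 1. In Hspa5 the element lay 43 to 25 bases upstream of the start.

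The heat shock element, in which GAA, TTC and GAA (or TTC, GAA and TTC) alternate with 2 bases between them, occurred in 5 of the 29 promoters and in 0.798% of all. These 5 belong to Hspa8, Hsph1, Dnaja1, Hspd1 and Hspe1, and in Dnaja1 the match lay after the start and is not shown. The other 4 stretches carry the fixed letters of the element in capitals.
Hspa8 (chr8:50080276-50080496, + strand): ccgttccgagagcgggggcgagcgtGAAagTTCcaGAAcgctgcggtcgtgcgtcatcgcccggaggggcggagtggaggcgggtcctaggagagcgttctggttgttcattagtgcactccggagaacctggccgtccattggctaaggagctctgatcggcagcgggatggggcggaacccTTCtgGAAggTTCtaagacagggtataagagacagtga
Hsph1 (chr12:10427307-10427367, + strand): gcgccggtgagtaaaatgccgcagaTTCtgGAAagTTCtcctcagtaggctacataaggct
Hspd1 (chr9:64084237-64084287, - strand): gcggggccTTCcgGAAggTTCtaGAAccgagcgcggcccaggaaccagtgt
Hspe1 (chr9:64084237-64084304, + strand): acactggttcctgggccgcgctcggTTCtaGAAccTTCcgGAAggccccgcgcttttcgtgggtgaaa
Hspd1 and Hspe1, the chaperonin and its co-chaperonin, are divergent neighbours, and the stretches shown for them overlap, the Hspd1 stretch being the first 51 bases of the Hspe1 stretch read from the other strand. No member's promoter held both the ER stress element and the heat shock element. The unfolded protein response core TGACGTG was found in the promoters of Hspa5, Hsph1 and Bag3 (1.81% of all promoters), and the ATF4 site (TGATG, any base, AA) in those of Trib3, Chac1 and Herpud1 (3.98% of all promoters). A match describes the letters in this window and is not evidence that a factor binds there.

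Levels are given as FPKM (fragments per kilobase of transcript, relative to the size of the library) multiplied by a factor for each library, so that the libraries agree under the TMM scaling of all 16. The tests between time points used the scaling of the 8 libraries of a tissue, which differed somewhat. In whole nerve at day 7 the median log2 fold change over all genes was 0.10 in a fit of all 16 and 0.02 as reported. Overlap of libraries was judged on the levels. Such levels can be set side by side between genes because they are per length. Fold changes are log2 values with their standard error from edgeR's quasi-likelihood test, p-values are Benjamini-Hochberg adjusted over all genes tested, and a gene is called higher or lower where the adjusted p is below 0.05. Of the 36 members, 34 passed the count filter in Schwann cells and 35 in whole nerve and in the fit of both. Trib3 passed in none, with 0 to 12 counts in a library, and Hspb8 did not pass in Schwann cells, with 0 to 7 counts. With 2 libraries a group, an exact permutation test of a single value could not give a p under 0.333. Nothing in the labels says that the 2 libraries of a group came from separate sets of animals, so the p-values measure the spread between libraries, which may be technical. The 3 comparisons of crushed with uncrushed nerve in a tissue share their uncrushed libraries.

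In Schwann cells at day 3 the ER-folding members Calr, Manf, Hsp90b1, Creld2, Pdia4 and Pdia6 rose, while Hspa8, Hsph1, Dnajb1 and Hspb1 of the cytosolic members and Atf4, Ddit3 and Asns of the ATF4 arm fell. Of the 34 members tested 9 were called higher and 8 lower. Across all genes 26.9% were called higher and 25.7% lower, so the members' shares were near the background. The members divided by compartment: of the 11 ER chaperones and disulfide isomerases, 6 were called higher and 0 lower, with a median log2 fold change of 0.48, whereas of the 9 cytosolic chaperones and small heat shock proteins tested, 1 was called higher and 4 lower, with a median of -0.48. The median over all genes was 0.00.

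**Figure D1:**
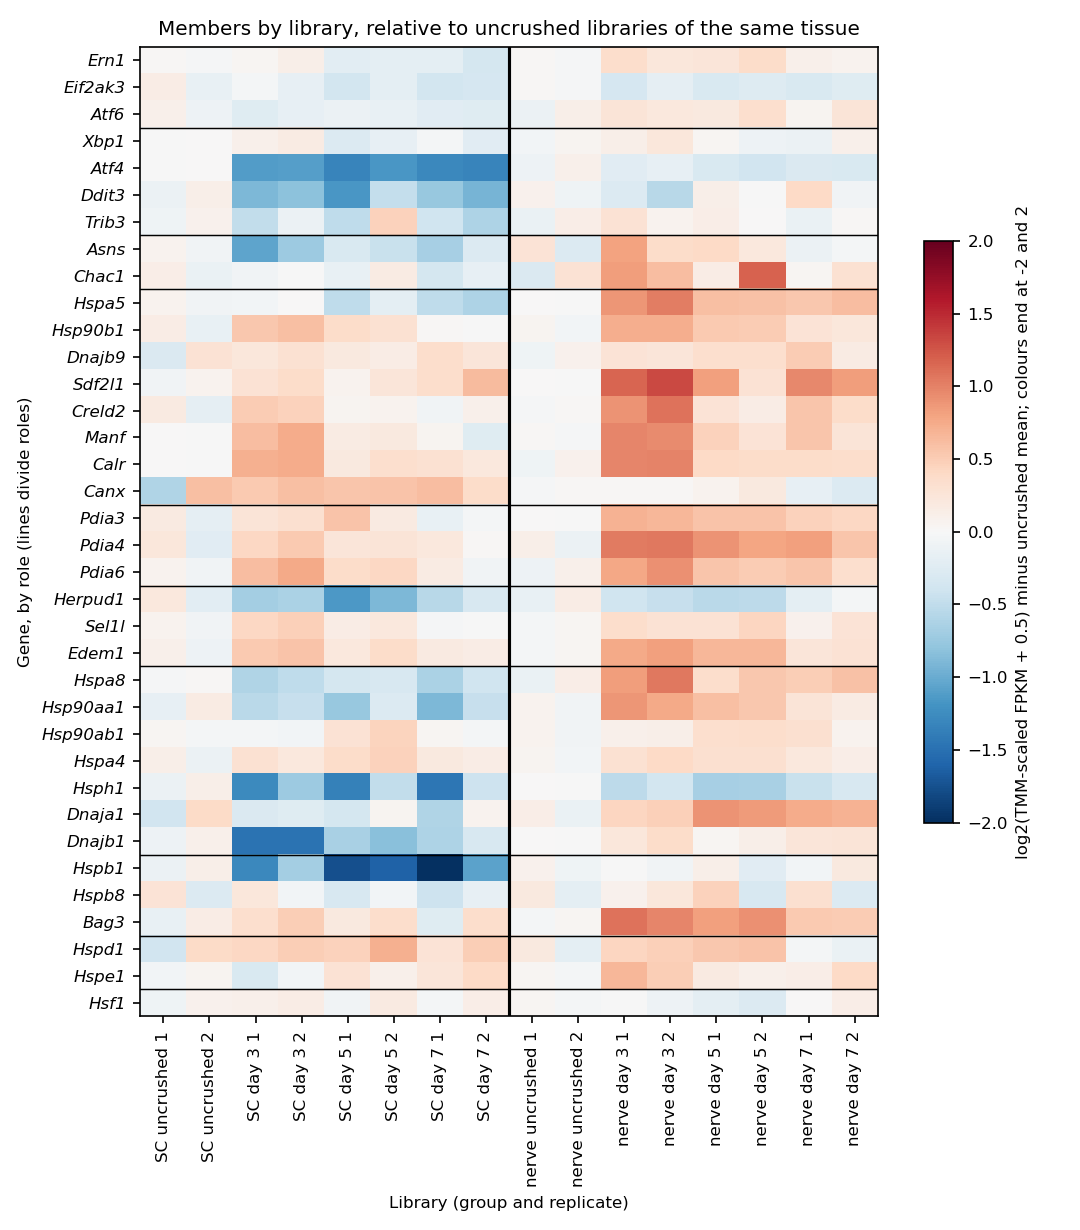
Levels of the 36 members (rows, grouped by role) in the 16 libraries (columns), as log2(TMM-scaled FPKM + 0.5) minus the mean of the 2 uncrushed libraries of the same tissue. In the Schwann cell columns after crush Atf4, Dnajb1 and Hspb1 are blue while Calr, Manf and Hsp90b1 are red at day 3, and in the whole nerve columns at day 3 most ER-folding members, Hspa8, Hsp90aa1 and Bag3 are red.

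Among the stress sensors none was called in Schwann cells at day 3. Ern1, the IRE1 kinase and nuclease, read 3.71 and 3.55 uncrushed and 3.76 and 3.96 at day 3 (log2 fold change 0.12 ± 0.12, adjusted p = 0.407). Atf6, the membrane-bound factor released by cleavage, read 75.7 and 65.1 uncrushed and 59.2 and 62.4 at day 3 (-0.13 ± 0.10, adjusted p = 0.317). Eif2ak3, the PERK kinase, read 9.86 and 7.84 uncrushed and 8.54 and 7.78 at day 3. The libraries of Ern1 and Atf6 did not overlap between uncrushed and day 3, but neither difference passed the test.

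The transcription factors of the PERK arm fell. Atf4, the factor whose translation rises under the integrated stress response, read 368 and 373 in uncrushed Schwann cells, 171 and 173 at day 3, then 148 and 165 at day 5 and 151 and 148 at day 7. Both uncrushed libraries lay above all 6 crushed ones, and the log2 fold changes were -1.08 ± 0.09 at day 3 (adjusted p = 8.13e-06), -1.23 ± 0.09 at day 5 and -1.29 ± 0.09 at day 7. Ddit3 (CHOP), a factor that ATF4 induces under lasting ER stress, read 30.8 and 36.1 uncrushed, 17.6 and 18.6 at day 3, then 14.6 and 23.8 at day 5 and 19.4 and 17.4 at day 7. Both uncrushed libraries again lay above all crushed ones, with a log2 fold change of -0.89 ± 0.22 at day 3 (adjusted p = 0.00757), with a call at all 3 time points. Xbp1, whose message IRE1 splices, read 46.0 and 46.4 uncrushed and 49.5 and 51.9 at day 3 (0.17 ± 0.10, adjusted p = 0.193). Gene-level counts do not separate spliced from unspliced Xbp1.

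The enzymes downstream of ATF4 did not move together. Asns, asparagine synthetase, read 5.15 and 4.61 in uncrushed Schwann cells and 2.10 and 2.74 at day 3, a log2 fold change of -0.88 ± 0.21 (adjusted p = 0.00527). At days 5 and 7 it read 2.89 to 3.97, below both uncrushed libraries, and was not called. Chac1, which degrades glutathione, read 5.73 and 4.72 uncrushed, 4.92 and 5.20 at day 3 and 3.99 to 5.88 later. Its day 3 and day 5 libraries overlapped the uncrushed ones and both day 7 libraries lay below them, with a log2 fold change at day 3 of -0.02 ± 0.20 (adjusted p = 0.946).

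Calr rose most among the ER chaperones in Schwann cells at day 3. It encodes calreticulin, a lectin chaperone for glycoproteins, and read 137 and 135 uncrushed, 222 and 228 at day 3, then 156 and 172 at day 5 and 168 and 157 at day 7. All 6 crushed libraries lay above both uncrushed ones, and the log2 fold change was 0.76 ± 0.09 at day 3 (adjusted p = 0.000102), 0.29 ± 0.09 at day 5 and 0.28 ± 0.09 at day 7. Manf, a secreted ER-resident protein, rose by 0.73 ± 0.12 at day 3, from 42.8 in each uncrushed library to 66.0 and 72.3. Hsp90b1 (GRP94), the ER member of the HSP90 family, rose by 0.60 ± 0.11, and Creld2, an ER protein with isomerase activity, by 0.49 ± 0.15.

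Hspa5, the BiP chaperone and the usual marker of ER stress, did not move with them. It read 1210.2 and 1105 in uncrushed Schwann cells, 1112 and 1159 at day 3, then 813 and 1006 at day 5 and 814 and 754 at day 7. Uncrushed and day 3 libraries overlapped (0.00 ± 0.12, adjusted p = 0.985), and the level then fell, with -0.33 ± 0.12 at day 5 and -0.54 ± 0.12 at day 7 against uncrushed (adjusted p = 0.035 and 0.00384). Dnajb9, a BiP co-chaperone, Sdf2l1, a component of the ER chaperone complex, and Canx (calnexin) had log2 fold changes of 0.26, 0.37 and 0.46 at day 3 and were not called. Canx read 138 in 1 uncrushed Schwann cell library and 319 in the other, against 272 to 324 after crush, so its value rests on which uncrushed library is used.

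Of the 3 disulfide isomerases, Pdia6 and Pdia4 were called higher at day 3. Pdia6 read 62.8 and 57.4 uncrushed, 92.4 and 102 at day 3, then 77.2 and 80.2 at day 5 and 67.2 and 57.3 at day 7. Its day 3 and day 5 libraries lay above both uncrushed ones and its day 7 libraries overlapped them, with 0.72 ± 0.11 at day 3 (adjusted p = 0.000403). Pdia4 rose by 0.48 ± 0.14. Pdia3, the isomerase that works with calnexin and calreticulin, read 501 and 395 uncrushed and 532 and 553 at day 3 (0.31 ± 0.15, adjusted p = 0.114). It was called higher at day 5 only (0.40 ± 0.15, adjusted p = 0.0486), where its libraries read 662 and 502.

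Genes of ER-associated degradation split. Edem1, which draws misfolded glycoproteins out of the folding cycle, read 18.6 and 16.1 uncrushed and 25.03 and 25.9 at day 3, a rise of 0.59 ± 0.10 (adjusted p = 0.00105). Sel1l, the scaffold of the HRD1 ubiquitin ligase, rose by 0.48 ± 0.09. Herpud1, a partner of the same ligase, read 27.5 and 20.5 uncrushed, 14.7 and 15.2 at day 3, then 10.4 and 12.5 at day 5 and 16.05 and 19.0 at day 7. It fell at all 3 time points, with -0.65 ± 0.16 at day 3 (adjusted p = 0.00734) and -1.05 ± 0.16 at day 5, but the call at day 7 was lost in 7 of the 8 fits that leave out 1 library, and no crushed library reached an uncrushed one.

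Among the cytosolic chaperones Dnajb1 had the largest change at day 3. It is an HSP40 that delivers clients to HSP70, and it read 58.6 and 67.1 in uncrushed Schwann cells, 22.2 and 22.2 at day 3, then 39.7 and 35.0 at day 5 and 40.7 and 49.9 at day 7. Each crushed library lay below both uncrushed ones, with -1.47 ± 0.13 at day 3 (adjusted p = 1.2e-05), -0.73 ± 0.13 at day 5 and -0.46 ± 0.13 at day 7. From day 3 to day 7 it rose again, by 1.01 ± 0.13 (adjusted p = 0.000651).

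Hspa8, the constitutive HSP70, read 400.4 and 417 uncrushed, 268 and 287 at day 3, then 319.7 and 328 at day 5 and 265 and 309.8 at day 7. It was lower in each crushed library, with -0.53 ± 0.10 at day 3 (adjusted p = 0.00215). Hsph1, an HSP110 that recharges HSP70, fell at day 3 (-0.95 ± 0.35), from 169 and 199.7 to 76.1 and 110.4, with a wide spread between replicates at later times (67.3 and 137 at day 7). The 2 cytosolic HSP90 genes differed: the inducible Hsp90aa1 read 712 and 900.4 uncrushed and 553 and 580.4 at day 3 (-0.48 ± 0.19, adjusted p = 0.0575), and was called lower at day 7 (-0.66 ± 0.19), whereas the constitutive Hsp90ab1 read 766 and 723 uncrushed and 727 and 719 at day 3 and was called higher at day 5 (0.39 ± 0.09). Hspa4, another HSP110, was the cytosolic chaperone called higher at day 3, with 73.2 and 61.8 uncrushed and 82.8 and 78.2 at day 3 (0.29 ± 0.10, adjusted p = 0.0389). Dnaja1, with 736 and 1243 uncrushed, was not called at any time in Schwann cells.

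Hspb1 (HSP27), a small heat shock protein that holds unfolding clients, read 157 and 186 uncrushed, 69.3 and 106 at day 3, then 50.3 and 55.3 at day 5 and 41.1 and 81.4 at day 7. No crushed library reached an uncrushed one, and the log2 fold changes were -0.94 ± 0.28, -1.70 ± 0.29 and -1.48 ± 0.29. Bag3, a co-chaperone of HSP70 in selective autophagy and a known HSF1 target, went the other way, with 18.4 and 22.7 uncrushed and 25.8 and 29.0 at day 3 (0.45 ± 0.19, adjusted p = 0.0737), but was not called. In the mitochondrion Hspd1 (HSP60) read 141 and 242 uncrushed and 246 and 261 at day 3 (0.43 ± 0.21, adjusted p = 0.118), and Hspe1 (HSP10) read 53.3 and 57.2 uncrushed and 44.6 and 53.3 at day 3 (-0.16 ± 0.15, adjusted p = 0.396). Hsf1 itself read 7.37 and 8.43 uncrushed and 7.49 to 8.95 in the 6 crushed libraries. Its day 3 libraries lay above both uncrushed ones and those of days 5 and 7 overlapped them, with no call.

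**Figure D2:**
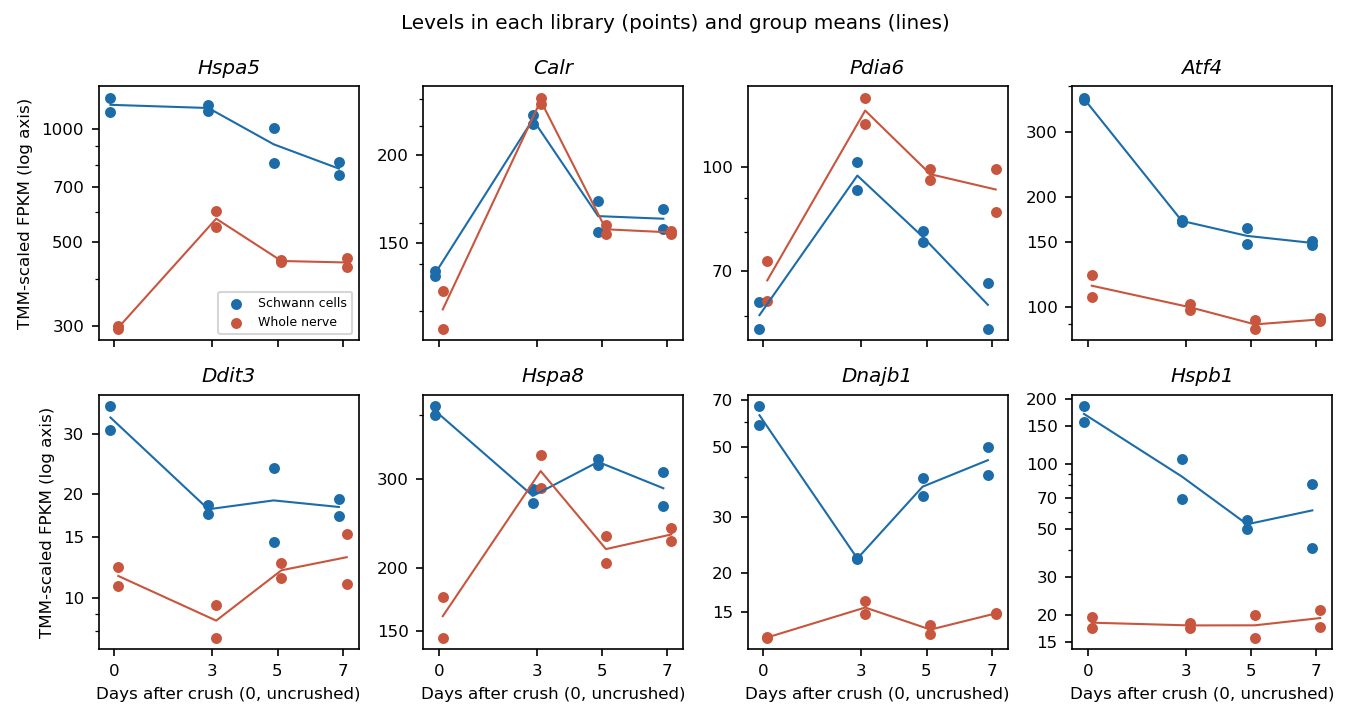
TMM-scaled FPKM (log axis) of 8 members in each library by days after crush, with points for libraries and lines through the means of 2. Hspa5 in Schwann cells is 1210.2 and 1105 uncrushed and 1112 and 1159 at day 3 while whole nerve rises from 299 and 294 to 549 and 606, and Dnajb1 in Schwann cells drops from 58.6 and 67.1 to 22.2 at day 3 and partly recovers.

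With each of the 8 Schwann cell libraries left out in turn, 11 of the 17 calls at day 3 held every time. Calr, Manf, Hsp90b1, Pdia6, Sel1l, Edem1, Atf4, Ddit3, Asns, Hspa8 and Dnajb1 are these 11. The calls of Creld2, Pdia4, Herpud1, Hspa4, Hsph1 and Hspb1 were each lost without at least 1 library, and for Hspa4 without 6 of the 8. Without day 3 replicate 2, the Schwann cell library with the most macrophage and endothelial marker signal, 14 members were called.

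Over time the median of the ER-folding members came back toward the uncrushed level while that of the cytosolic members stayed below it. At day 5, 8 members were called higher and 7 lower, beside 29% and 25.6% of all genes, and at day 7, 2 were called higher and 8 lower, beside 25% and 21.9%. Without day 5 replicate 1, or without day 3 replicate 1, 9 members were called at day 5, and without day 7 replicate 1, 5 were called at day 7. With each library left out in turn, 5 of the 15 calls at day 5 held throughout (Atf4, Herpud1, Hspa4, Dnajb1 and Hspb1), and 4 of the 10 at day 7 did (Atf4, Hspa5, Hspa8 and Hspb1). Those lost in at least 6 of the 8 fits were Hspd1 and Pdia3 at day 5 and Sdf2l1, Herpud1 and Calr at day 7. The median of the 11 ER-folding members was 0.25 at day 5 and 0.07 at day 7, and that of the 9 cytosolic members was -0.32 and -0.46. Without uncrushed replicate 2 the ER median at day 7 was -0.07, and without day 7 replicate 2 it was 0.18. Across all 4 time points, 10 of the 34 members had both uncrushed Schwann cell libraries above all 6 crushed ones (27% of all genes) and 4 had both below (28.2% of all genes). Between day 3 and day 5, 2 members were called higher and 3 lower (6.09% and 6.36% of all genes): Dnajb1 and Hsp90ab1 rose, and Xbp1, Manf and Calr fell. None of these 5 calls held with each library left out: 0 members were called without day 3 replicate 2 or without day 5 replicate 1, 1 without day 3 replicate 1 and 2 without day 5 replicate 2. Between day 3 and day 7, 2 were called higher and 9 lower (10.2% and 10.7% of all genes), and 6 of the 9 were ER chaperones or disulfide isomerases: Hspa5, Hsp90b1, Creld2, Manf, Calr and Pdia6. Of these 11 calls those of Manf, Pdia6 and Dnajb1 held throughout, and the other 8 were each lost without day 3 replicate 2, those of Hsp90b1, Calr and Sel1l without that library alone. The number of members called was then 3, and it was 7 without day 3 replicate 1 or day 7 replicate 1.

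At days 5 and 7 Ern1, Atf6 and Xbp1 sat below both uncrushed libraries in Schwann cells. Ern1 read 3.08 and 3.12 on day 5 and 3.12 and 2.73 on day 7, under every uncrushed and day 3 library, and was called lower on day 7 than on day 3 (-0.41 ± 0.12, adjusted p = 0.0364). Xbp1 read 38.3 and 41.3 on day 5 and 44.9 and 39.3 on day 7, also under every uncrushed and day 3 library. Atf6 read 64.4 and 63.4 on day 5 and 60.1 and 59.2 on day 7, and both uncrushed libraries stood above these.

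The remaining members with values for each library divided between those that overlapped the uncrushed libraries and those that stayed apart. Chac1 read 4.62 and 5.88 on day 5 and 3.99 and 4.59 on day 7, and Asns 3.83 and 3.46, then 2.89 and 3.97. Edem1 read 20.1 and 22.3 on day 5 and 19.6 and 19.1 on day 7, and Pdia3 read 399.7 and 432 on day 7. For Edem1 all 6 crushed libraries exceeded both uncrushed ones, while Pdia3 on day 7 overlapped them. Hspa4 read 87.2 and 92.5 on day 5 and 77.1 and 74.9 on day 7, above both uncrushed libraries throughout, and Bag3 23.4 and 26.2, then 17.1 and 26.3, above both uncrushed libraries on day 5 and overlapping them on day 7. The mitochondrial pair read 256 and 303 on day 5 and 223 and 259 on day 7 for Hspd1, and 67.9 and 59.5, then 65.2 and 73.2 for Hspe1. Hspe1 was above both uncrushed libraries on both days but was called only against day 3 (0.47 on day 7, adjusted p = 0.0445), and Hspd1 only on day 5 (0.56 ± 0.21, adjusted p = 0.0496). Hsf1 read 8.47 and 8.79 on day 3, 7.49 and 8.95 on day 5 and 7.64 and 8.66 on day 7.

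In whole nerve most ER-folding members and 5 of the cytosolic ones, Hspa8, Hsp90aa1, Hspa4, Dnaja1 and Bag3, rose at day 3. Of 35 members tested 17 were called higher and 4 lower, beside 23.1% and 22.5% of all genes. Of the 11 ER-folding members 9 were called higher (median 0.89), and of the 10 cytosolic members 5 were called higher and 1 lower (median 0.27), against a median over all genes of 0.00. In bulk tissue a change in the mixture of cells and a change in RNA per cell cannot be told apart, and the summed macrophage markers were 145 and 162 uncrushed and 512 and 521 at day 3 in the same libraries, and the summed Schwann cell markers 22045 and 26240 and then 2260 and 2444. The part of these in the members' values was not tested.

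Hspa5 in whole nerve read 299 and 294 uncrushed, 549 and 606 at day 3, then 448 and 443 at day 5 and 430.4 and 453 at day 7. All crushed libraries lay above both uncrushed ones, by 0.89 ± 0.08 at day 3 (adjusted p = 1.34e-05), 0.49 ± 0.08 and 0.48 ± 0.08. Calr read 113 and 128 uncrushed, 237 and 241 at day 3 and 155 to 159 later, without overlap, and rose by 0.92 ± 0.09 at day 3. Sdf2l1 had the largest rise among the members called at day 3, from 8.1999 and 8.16 to 18.9 and 21.2 (1.23 ± 0.20, adjusted p = 0.000547). Pdia4, Pdia6, Pdia3, Creld2, Manf and Hsp90b1 rose by 0.61 to 0.98. Canx read 247 and 256 uncrushed and 255 and 256 at day 3 and was not called.

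Hspa8 in whole nerve read 146 and 176 uncrushed, 287 and 334 at day 3, then 204 and 232 at day 5 and 226 and 239.6 at day 7, all crushed libraries above both uncrushed ones (0.88 ± 0.12 at day 3, adjusted p = 0.000178). Hsp90aa1 rose by 0.76 ± 0.09, from 249.5 and 227 to 438 and 404. Bag3 rose by 1.02 ± 0.12, from 6.27 and 6.62 to 14.3 and 13.2, and Dnaja1 by 0.38 ± 0.10. Dnajb1 read 12.5 in each uncrushed library and 14.8 and 16.3 at day 3 (0.25 ± 0.11, adjusted p = 0.104). Hspb1 read 19.6 and 17.4 uncrushed and 15.8 to 21.1 after crush, with overlap and no call. Hsph1 was the cytosolic chaperone that fell, from 44.2 and 43.3 to 30.3 and 33.7 (-0.52 ± 0.09, adjusted p = 0.000993), and it was lower in all 6 crushed libraries.

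Among the sensors of whole nerve, Ern1 read 1.99 and 1.91 uncrushed, 2.62 and 2.36 on day 3, 2.41 and 2.65 on day 5 and 2.14 and 2.07 on day 7. Atf6 read 33.3 and 39.1, then 43.1 and 42.0, 41.3 and 45.6, and 37.6 and 43.1 in the same order. Xbp1 read 56.1 and 60.4, then 62.9 and 68.6, 59.5 and 54.5, and 53.7 and 62.5. Ern1 was lowest in the 2 uncrushed libraries, while Atf6 and Xbp1 lay above both uncrushed libraries on day 3 and overlapped them on day 7. Ddit3 read 12.3 and 10.9 uncrushed, 9.52 and 7.68 on day 3, 12.6 and 11.5 on day 5 and 15.3 and 10.95 on day 7. Atf4 read 92.1 and 87.2 on day 5 and 93.2 and 91.8 on day 7, Asns 12.4 and 8.39, then 18.3 and 13.2, 13.6 and 11.8, and 9.31 and 9.96 over the 4 groups. Neither Ddit3 (-0.50 ± 0.21) nor Asns (0.48 ± 0.19) was called at day 3. Chac1 stayed between 0.110 and 1.19, at 0.110 and 0.414, 0.839 and 0.646, 0.326 and 1.19, and 0.266 and 0.419.

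Among the ER members of whole nerve, Pdia6 read 63.1 and 72.4 uncrushed, 116 and 127 on day 3, 99.4 and 95.9 on day 5 and 99.4 and 85.9 on day 7. Pdia3 read 318 and 316, then 515 and 501, 469 and 473, and 437 and 423. Edem1 read 17.1 and 18.0, then 30.1 and 31.5, 28.3 and 28.1, and 20.8 and 21.6. In all 3 genes the crushed libraries lay above the uncrushed ones and the day 3 libraries were the highest. Herpud1 read 9.12 and 9.21 on day 5 and 11.7 and 13.1 on day 7, and Calr 159 and 155, then 156 and 155.

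Of the cytosolic and mitochondrial members, Hspa4 read 70.6 and 65.6 uncrushed, 84.3 and 90.02 on day 3, 84.8 and 85.3 on day 5 and 79.3 and 74.5 on day 7, with every crushed library above both uncrushed ones. Dnajb1 read 12.8 and 13.7 on day 5 and 14.8 and 14.9 on day 7, and Bag3 11.8 and 12.7, then 9.53 and 9.39. Hspb1 read 19.6 and 17.4, then 18.4 and 17.5, 20.2 and 15.8, and 17.8 and 21.1 over the 4 groups. Uncrushed and crushed libraries of Hspb1 overlapped at each time. Hspd1 read 199 and 152, then 234 and 243, 253 and 258, and 170.1 and 158, and Hspe1 74.3 and 70.2, then 115 and 102, 82.0 and 77.8, and 79.0 and 95.7. Hspd1 and Hspe1 were called higher at day 3, by 0.37 ± 0.12 and 0.53 ± 0.12. Hsf1 read 7.74 and 7.23, then 7.41 and 6.95, 6.48 and 6.08, and 7.51 and 8.25. Its day 5 libraries lay below both uncrushed ones, and those of days 3 and 7 overlapped them. Hspb8 read 7.48 and 5.53, then 6.85 and 7.61, 9.01 and 5.05, and 8.13 and 5.23 in whole nerve, and in Schwann cells 0.299 and 0.0501, then 0.277 and 0.141, 0.0289 and 0.141, and 0 and 0.0938.

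The other members lower in whole nerve at day 3 were Atf4, Herpud1 and Eif2ak3. Atf4 read 106 and 122 uncrushed, 97.9 and 102 at day 3 and 87.2 to 93.2 later (-0.26 ± 0.09 at day 3, adjusted p = 0.042, and -0.45 ± 0.09 at day 5). Herpud1 read 12.1 and 15.1 uncrushed and 10.2 and 9.70 at day 3 (-0.52 ± 0.15, adjusted p = 0.016). Eif2ak3 read 11.4 and 11.2 uncrushed and 8.80 to 9.96 after crush (-0.31 ± 0.11 at day 3). The call of Eif2ak3 was lost in 7 of the 8 fits that leave out 1 library, that of Atf4 in 6 and those of Herpud1 and Hspd1 in 3, those of Hspa4 and Dnaja1 were lost in 2, and 15 of the 21 held throughout. The scaling factor applied to FPKM was 1.22 and 1.218 in the uncrushed libraries against 0.949 to 0.989 in the crushed ones. At day 5, 12 members were called higher and 4 lower (18.9% and 19.5% of all genes), and at day 7, 10 and 4 (15.4% and 15.9%). Without whole nerve uncrushed replicate 1, 8 were called at day 7, and without day 7 replicate 1, 9. With each library left out in turn, 11 of the 16 calls at day 5 and 6 of the 14 at day 7 held throughout, and that of Calr at day 7 was lost in 7 of the 8 fits. Both uncrushed libraries lay below all 6 crushed ones for 21 of the 35 members (26.9% of all genes) and above them for 3, Eif2ak3, Atf4 and Hsph1 (17.2% of all genes). The ER median was 0.42 at day 5 and 0.34 at day 7 and the cytosolic median 0.23 and 0.11. Without day 5 replicate 1 the ER median at day 5 was 0.27.

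**Figure D3:**
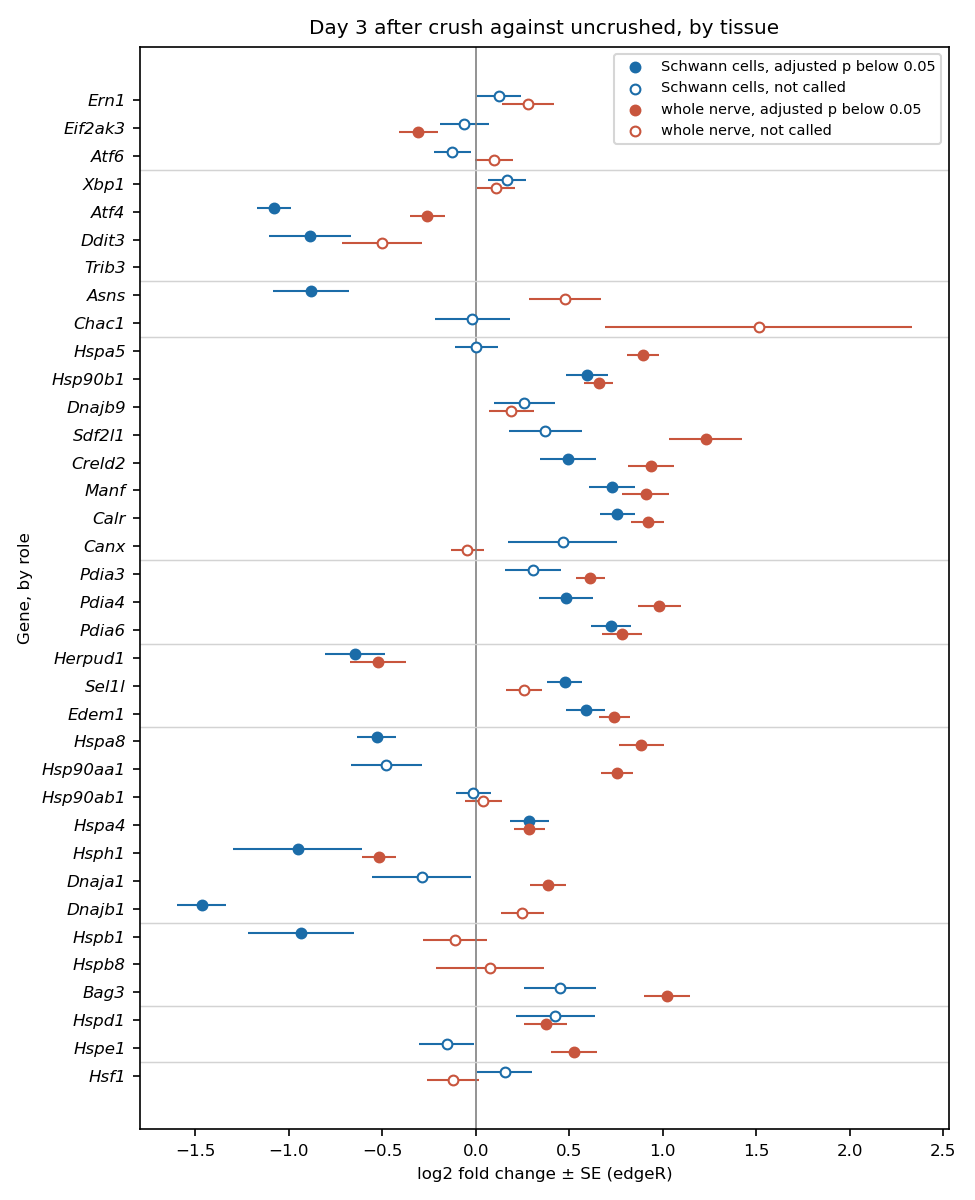
log2 fold change ± SE at day 3 against uncrushed for each member tested, in Schwann cells (blue) and whole nerve (red), filled where the adjusted p is below 0.05. Trib3 was tested in neither tissue and Hspb8 in whole nerve alone. Calr, Manf, Hsp90b1 and Pdia6 are above 0 and called in both tissues, Hspa5 is at 0.00 in Schwann cells and 0.89 in whole nerve, and Hspa8 is at -0.53 in Schwann cells and 0.88 in whole nerve.

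The difference between the tissues was tested directly, as the change from uncrushed to day 3 in Schwann cells minus that in whole nerve. No member was called higher and 9 of 35 were called lower, beside 12.3% and 13.7% of all genes, and 31 of the 35 differences were below 0, beside 52.2% of all genes. The 9 are Dnajb1 (-1.82 ± 0.17, adjusted p = 2.27e-06), Hspa8 (-1.52 ± 0.17, adjusted p = 1.13e-05), Asns (-1.46 ± 0.30), Hsp90aa1 (-1.34 ± 0.23), Hspa5 (-0.99 ± 0.15), Sdf2l1 (-0.96 ± 0.28), Atf4 (-0.92 ± 0.13), Hspe1 (-0.79 ± 0.19) and Pdia4 (-0.60 ± 0.20). The calls of Sdf2l1 and Pdia4 were lost with some libraries left out, and the other 7 held with each of the 16. The median difference was -0.28 for the 11 ER-folding members and -0.73 for the 10 cytosolic members, and -0.04 over all genes. Hspb8 is among the 10 and the 35 although it passed the count filter through whole nerve alone, so its difference is not precise. At day 7 no member was called higher and 11 were called lower (11.6% and 14.4% of all genes), with 32 of 35 below 0, beside 53.5% of all genes. These 11 comprised Atf4, Ddit3, Hspa5, Manf, Pdia3, Pdia4, Hspa8, Hsp90aa1, Dnaja1, Dnajb1 and Hspb1, of which Atf4, Hspa5, Hspa8, Dnajb1 and Hspb1 held with each library left out. Without whole nerve day 7 replicate 1 or uncrushed replicate 2, 7 were called at day 7.

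ER and cytosolic chaperones can also be set side by side within each library. Relative to the uncrushed mean of its own tissue, the median of the 11 ER-folding members was 0.51 and 0.52 on the log2 scale in the Schwann cell libraries of day 3, 0.20 and 0.24 in those of day 5 and 0.16 and 0.02 in those of day 7. The median of the 9 cytosolic members was -0.53 and -0.46 at day 3, then -0.35 and -0.28 at day 5 and -0.62 and -0.33 at day 7. The ER median minus the cytosolic median was thus 0.98 and 1.04 at day 3, then 0.52 and 0.55 at day 5 and 0.35 and 0.78 at day 7, while the 2 uncrushed libraries lay at 0.18 and -0.18 (their mean is 0 by construction). In whole nerve that gap was 0.54 and 0.58 at day 3 and 0.01 to 0.28 at days 5 and 7. The ER median thus lay above the cytosolic median in all 12 crushed libraries, although the smallest gap in whole nerve, 0.01, was within the 0.05 and -0.05 of its uncrushed libraries, and at day 3 the gap in both Schwann cell libraries was larger than in both whole nerve libraries, a difference that was not tested.

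**Figure D4:**
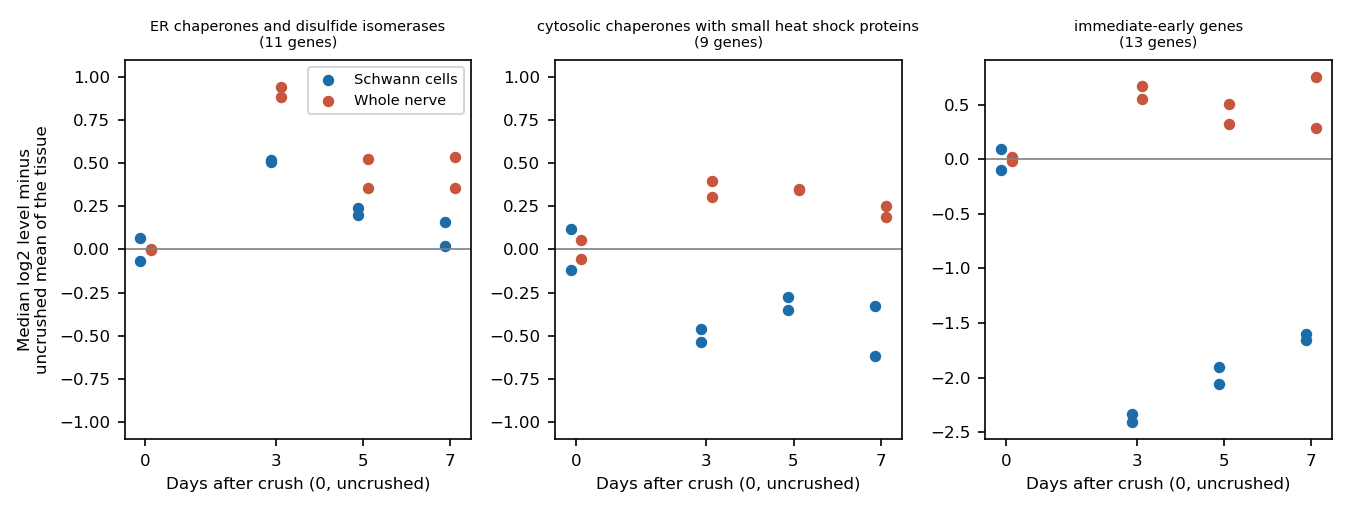
Median log2 level in each library, minus the uncrushed mean of the same tissue, for 11 ER chaperones and disulfide isomerases, 9 cytosolic chaperones with small heat shock proteins, and 13 immediate-early genes (own axis range), by days after crush, with a point for each library. The ER points at day 3 are 0.51 and 0.52 in Schwann cells and 0.89 and 0.94 in whole nerve, the cytosolic points are -0.53 and -0.46 against 0.31 and 0.40, and the immediate-early points are -2.40 and -2.33 against 0.55 and 0.67.

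In uncrushed nerves most cytosolic members were higher in purified Schwann cells than in intact nerve. Of 35 members 21 were called higher in Schwann cells and 5 lower, beside 29.1% and 35.3% of all genes. Of the 10 cytosolic members 8 were higher and 1 lower (median log2 ratio 1.62), and of the 11 ER-folding members 6 were higher and 0 lower (median 0.44), against a median over all genes of -0.10. The ER median was 0.18 without uncrushed Schwann cell replicate 2. Dnajb1 read 58.6 and 67.1 in Schwann cells and 12.5 and 12.5 in whole nerve (2.33 ± 0.12, adjusted p = 1.22e-09), and Atf4 368 and 373 against 106 and 122 (1.70 ± 0.09, adjusted p = 1.49e-09). Hspb1 was higher by 3.20 ± 0.28, Hsph1 by 2.08 ± 0.30, Hspa5 by 1.96 ± 0.11, Hsp90aa1 by 1.76 ± 0.17, Ddit3 by 1.502 ± 0.23 and Hspa8 by 1.35 ± 0.12. The groups of these 8 genes did not overlap.

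Chac1 read 5.73 and 4.72 in uncrushed Schwann cells and 0.110 and 0.414 in whole nerve, where only 2 and 5 reads were counted. The 5 members called lower in Schwann cells were Hspb8, Asns, Hspe1, Eif2ak3 and Xbp1. Hspb8, a small heat shock protein that works with Bag3, read 0.299 and 0.0501 in uncrushed Schwann cells (7 and 1 counts) and 7.48 and 5.53 in whole nerve (152 and 76 counts), and it stayed between 5.05 and 9.01 in every whole nerve library. Hspb8 passed the count filter through whole nerve alone, so a difference was bound to appear and its call is no result. Chac1 passed the filter in each tissue, but its few counts in uncrushed whole nerve leave the size of its ratio imprecise. Without Chac1 and Hspb8, 20 members were called higher and 4 lower of 33, and of the 9 cytosolic members left 8 were higher (median 1.67). Asns read 5.15 and 4.61 in Schwann cells and 12.4 and 8.39 in whole nerve (-1.15 ± 0.21, adjusted p = 0.000256). Of the 24 calls without Chac1 and Hspb8, 18 held with each of the 16 libraries left out. Those lost with 1 or more were Eif2ak3, Xbp1, Dnajb9, Pdia3, Pdia4 and Hspe1.

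**Figure D5:**
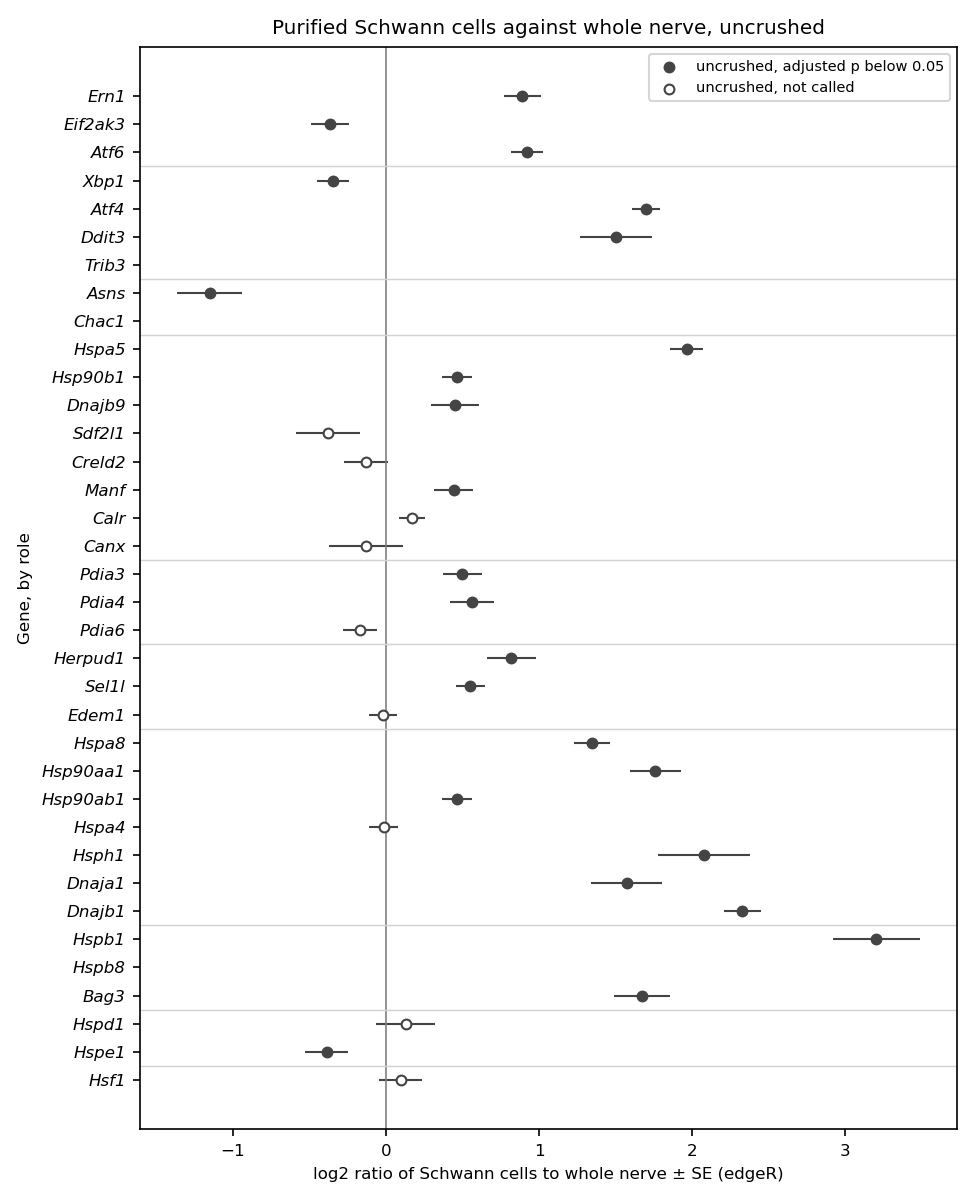
log2 ratio ± SE of purified Schwann cells to whole nerve, both uncrushed, for the 33 members tested other than Chac1 and Hspb8, filled where the adjusted p is below 0.05. Most cytosolic chaperones lie above 1, with Hspb1 at 3.20, while Asns lies at -1.15 and Calr, Creld2 and Pdia6 near 0.

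After crush the cytosolic median stood closer to 0. At day 3, 17 members were higher and 8 lower in Schwann cells (24.5% and 32.8% of all genes), at day 5, 15 and 8 (23.2% and 28.4%), and at day 7, 16 and 8 (22.4% and 28.7%). Without Hspb8, and Chac1 at day 7, these were 17 and 7, 15 and 7, and 15 and 7. With each of the 16 libraries left out in turn, 18 of the 25 calls at day 3, 14 of 23 at day 5 and 16 of 24 at day 7 held throughout. Leaving out Hspb8, and Chac1 at day 7, these were 17 of 24, 13 of 22 and 14 of 22. At day 7 the cytosolic calls of Hsp90ab1, Dnaja1 and Hspa8 were lost in 13, 11 and 7 of the 16 fits. The median ratio of the 10 cytosolic members was 0.47 at day 3, 0.62 at day 5 and 0.73 at day 7, and that of the ER-folding members 0.09, 0.17 and -0.04. Without Schwann cell day 7 replicate 2 the values at day 7 were 0.46 and 0.07. Leaving out Hspb8 with all libraries kept, the median ratio of the 9 cytosolic members was 0.51, 0.68 and 0.87 at days 3, 5 and 7. At day 3 Hspa8 read 268 and 287 in Schwann cells and 287 and 334 in whole nerve (-0.17 ± 0.12, adjusted p = 0.229), and Calr 222 and 228 against 237 and 241 (-0.10 ± 0.09, adjusted p = 0.364). Hspa5 remained higher in Schwann cells, at 1112 and 1159 against 549 and 606 (0.97 ± 0.11, adjusted p = 2.12e-06).

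Immediate-early genes, which tissue dissociation is known to raise and which were taken along for that reason, moved between the same libraries. Without crush all 13 were called higher in the purified cells, with a median log2 ratio to whole nerve of 5.02, and their summed level was 4906 and 5868 in uncrushed Schwann cells, 1529 to 1922 in crushed Schwann cells and 136 to 258 in whole nerve. Fos read 901 and 964 in uncrushed Schwann cells, 243 to 325 after crush and 2.47 to 13.7 in whole nerve. In Schwann cells at day 3, 10 of the 13 were called lower and none higher (median -2.43), and in whole nerve 6 were called higher and none lower (median 0.88). Hspa1a, the heat-inducible HSP70 and no member here, read 250.4 and 271 in uncrushed Schwann cells, 60.2 to 113 after crush and 0 to 0.672 in whole nerve. The part of dissociation in the fall of Atf4, Dnajb1, Hspa8 and Hspb1 after crush, and in the gap between the tissues, was not tested, and in whole nerve, which was not dissociated, Atf4 was called lower (a call lost in 6 of 8 fits with 1 library left out), Hspa8 higher and Dnajb1 and Hspb1 neither at day 3. The study does not anticipate significant changes from purification apart from immediate early genes. It reports that comparing whole with dissociated nerve bore this out, a comparison not repeated here.

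Other genes of the same pathways were counted from 2 lists. Of 57 further genes of ER stress and folding tested in Schwann cells at day 3, 23 were higher and 12 lower (median 0.32), beside 26.9% and 25.7% of all genes. By role, 10 of 18 ER-folding genes and 8 of 10 genes of ER-associated degradation were higher with none lower, whereas among 12 ATF4 targets 1 was higher and 5 lower. Stc2, among these 12, read 0 in both uncrushed Schwann cell libraries and 0.614 and 2.50 at day 3. It passed the count filter through crushed libraries alone, so a call for it is no result. The 3 risen genes with the lowest adjusted p were Dnajc10, an ER disulfide reductase (26.8 and 27.3 to 64.7 and 66.3, 1.31 ± 0.09), and the translocon subunits Sec61a1 (1.06 ± 0.10) and Sec61b (1.38 ± 0.16). The 3 fallen ones were Vldlr, a lipoprotein receptor (-1.57 ± 0.11), Ppp1r15b, a regulatory subunit of the eIF2 phosphatase (-1.42 ± 0.11), and Atf5, a factor induced along with ATF4 (-1.69 ± 0.16).

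Of 47 further chaperone and co-chaperone genes 17 were higher and 8 lower in Schwann cells at day 3 (median 0.19), beside the same background of 26.9% and 25.7%. Fkbp5, an HSP90 co-chaperone that glucocorticoids induce, rose from 2.26 and 2.00 to 14.3 and 12.6 (2.68 ± 0.16, adjusted p = 7.06e-07), followed by Bag1 (1.56 ± 0.13) and the HSP110 member Hspa4l (0.73 ± 0.11). Cryab, a small heat shock protein, fell from 886 and 973 to 276 and 371 (-1.498 ± 0.16), as did Hspa1a (-1.77 ± 0.21) and Hspb2 (-2.14 ± 0.35). All 8 subunits of the cytosolic chaperonin on the list lay above 0 in Schwann cells at day 3, 5 of them called, and all 8 were called higher in whole nerve. In Schwann cells Cct3 alone of these overlapped, with 49.6 and 36.5 uncrushed and 46.2 and 40.7 at day 3. In whole nerve 20 of 56 of the ER genes were higher and 11 lower at day 3 (median 0.08), and 15 of 48 of the chaperone genes were higher and 10 lower (median 0.05), beside 23.1% and 22.5% of all genes.

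Several members have processed copies in the genome. The RefSeq table lists 33 pseudogene records named for Hspa8, 23 for Hsp90ab1, 16 for Hsp90aa1, 20 for Hspd1 and 4 for Dnaja1, and none of them has a row in the deposited tables, and the same holds for 2 records of Hsp90b1 and 1 each of Pdia4 and Hspe1. Reads from such copies could be assigned to the parent gene or lost, so the levels of these 8 genes are uncertain to that extent.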

How the data were processed

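RNA of 16 rat samples (8 of Schwann cells, 8 of whole nerve) was amplified with the Ovation V2 system and sequenced. The authors aligned reads with STAR to Rnor_6.0 and deposited RSEM expected counts and FPKM per gene. No source names molecular identifiers. Expected counts were rounded and tested with edgeR 4.0.16 (filterByExpr, TMM, quasi-likelihood, R 4.3.3), separately for the 8 libraries of each tissue, and jointly over all 16 for contrasts between tissues, with Benjamini-Hochberg adjustment over all genes and a threshold of 0.05. For levels, the deposited FPKM were rescaled by the 16-library TMM factors and a pseudocount of 0.5 was used for medians per library. The code was tested on simulated data. Every member is named. Values of each library are given for the member with the highest and the lowest fold change in each role at day 3 in Schwann cells, for Hspa5, Ddit3, Atf4, Hspa8 and Hsf1, and for the top 2 by adjusted p, higher and lower, between uncrushed tissues and for the difference of tissues at day 3. From each other list, 3 risen and 3 fallen genes are named by lowest adjusted p at day 3 in Schwann cells. Library values of further members, and the stretches of promoter, were chosen after values were seen, as was leaving out members with at most 10 counts in both libraries of a tissue. Members and lists were chosen with earlier results of these data known. Alternatives were DESeq2 1.42.0, another scaling, other filters and other sets of libraries. A count matrix equal to the expected counts and a table of co-expression modules, 24 columns in all, were not used.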

Additional observations from a re-analysis of the deposited data

Results flagged for a closer look

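The change after crush differed between Schwann cells and whole nerve for 9 members at day 3 and 11 at day 7, by the test of that difference itself (edgeR's quasi-likelihood test, Benjamini-Hochberg adjusted over all genes), and in each of these 20 cases the change was lower in Schwann cells. Of all genes, 13.7% were called lower and 12.3% higher by this test at day 3, and 14.4% and 11.6% at day 7. At day 3 the log2 differences were -1.816 for Dnajb1, -1.516 for Hspa8, -1.458 for Asns, -1.336 for Hsp90aa1, -0.9935 for Hspa5, -0.9584 for Sdf2l1, -0.9248 for Atf4, -0.7863 for Hspe1 and -0.6035 for Pdia4. At day 7 they were -1.57 for Hspb1, -1.14 for Hspa5, -1.048 for Hspa8, -1.01 for Atf4, -0.9961 for Ddit3, -0.9887 for Dnaja1, -0.8856 for Hsp90aa1, -0.7239 for Dnajb1, -0.598 for Pdia4, -0.5502 for Pdia3 and -0.5084 for Manf. With each of the 16 libraries left out in turn, the day 3 calls of Pdia4 and Sdf2l1 were lost in 10 and 5 fits, and the day 7 calls of Manf in 14, Pdia3 and Pdia4 in 11, Ddit3 and Dnaja1 in 5 and Hsp90aa1 in 1. Both days use the same 4 uncrushed libraries. Of the 13 immediate-early genes, 11 were called lower by the same test at day 3 and 10 at day 7, with none called higher, and their part in the members' differences was not tested.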

How the results depend on the processing

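Counts were too few for a precise value for Trib3 everywhere (0 to 12 in a library), Hspb8 in Schwann cells (0 to 7) and Chac1 in whole nerve (2 to 29). With 1 library left out, the number of members called ranged from 9 to 16 at day 5 and 5 to 10 at day 7 in Schwann cells, 0 to 7 for day 5 against day 3, 3 to 13 for day 7 against day 3, 8 to 13 in whole nerve at day 7 and 7 to 13 for the difference of tissues at day 7. All genes called ranged from 541 to 2333 for day 5 against day 3 and from 1533 to 3643 for day 7 against day 3. The ER median ranged from 0.43 to 0.70 at day 3 and -0.07 to 0.18 at day 7 in Schwann cells, 0.27 to 0.46 at day 5 and 0.29 to 0.45 at day 7 in whole nerve, and 0.18 to 0.44 uncrushed and -0.07286 to 0.07018 at day 7 between tissues. The cytosolic median ranged from -0.09 to 0.22 for day 5 against day 3, -0.3545 to 0.03487 for day 7 against day 3, 1.42 to 1.85 uncrushed and 0.46 to 0.98 at day 7 between tissues, and -0.93 to -0.62 at day 3 and -1.09 to -0.59 at day 7 for the difference of tissues.

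Changes of sign came with 1 library left out. The ER median was -0.0717 in Schwann cells at day 7 without uncrushed replicate 2, and between tissues at day 7 it was 0.07018 without Schwann cell day 7 replicate 2 and 0.06924 without whole nerve day 7 replicate 1. The cytosolic median was -0.08909 for day 5 against day 3 without day 5 replicate 2 and -0.3545 for day 7 against day 3 without day 7 replicate 2. Canx between uncrushed tissues was 0.3426 without Schwann cell uncrushed replicate 1, against -0.13 with it and -0.8492 without uncrushed replicate 2.

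Under the other alternatives, the ER median between tissues at day 5 was 0.3066 with upper quartile scaling, and of all genes called between tissues 54.6% were then higher in Schwann cells at day 5 and 51.4% at day 7, against 44.9% and 43.8% as reported. With only the 4 libraries compared, 9 members were called for day 5 against day 3 and 8 in whole nerve at day 7, and with no filter on low counts 14 were called for the difference of tissues at day 3. In 1 fit of all 16 libraries, 60.8% of the genes called in whole nerve at day 7 were higher, against 49.3% as reported. The median over all genes between tissues at day 3 was -0.11 as reported. The cause of these shifts was not tested. With DESeq2, the 3 time points gave 16, 14 and 8 called members in Schwann cells and 20, 18 and 11 in whole nerve. With the replicate number as a block, 20, 17 and 10 members were called in Schwann cells and 23, 18 and 14 in whole nerve, within 1.5 times the reported counts. Samples that share a number did not deviate together across genes (correlations of -0.0552 to 0.0758), which gives no sign of pairing. A pairing with small effects, or with effects on few genes, would not show in these correlations.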
